A study of Rattus norvegicus with 6 samples.

Results

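Next, the genes of cyclic nucleotide and protein kinase C signalling were examined in the list of differentially methylated regions (DMRs) between stressed and unstressed rats. Regions were taken by the gene symbol in the authors' annotation: Pde with a number and a letter, Adcy with a number, symbols starting with Prkc, Prka, Prkg, Gucy, Plcb, Plcg, Plcd, Plce or Dgk, and Akap with a digit. A region was counted once by its position and cytosine context. These symbols took 147 of the 24862 annotated regions, and the 147 regions belonged to 57 genes. RefSeq lists 104 protein-coding rat symbols of these forms, of which 56 carried a region (53.8%), against 25.9% of all 23154 protein-coding symbols. Gene length, which sets how many regions a gene can hold, was not taken into account. The gene counts of the single classes below are to be read beside the same 25.9%.

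DNA methylation had been profiled in brain microvascular endothelial cells (BMECs) of the hippocampus, in 3 samples of male Sprague-Dawley rats after 8 weeks of chronic unpredictable mild stress (CUMS) and in 3 samples of unstressed rats (Ctrl). Per the study's methods the rats were 6 weeks old when they entered the study, and the cells were sorted by flow cytometry as CD45- and CD31+, markers of leukocytes and of endothelium. The sources used here do not give how many animals made up a sample, and methylation regions hold no marker with which to check the sort. Cytosines were read in 3 contexts, CG, CHG and CHH, where H is any base other than G.

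The deposited tables hold a single level per group for each region, into which the authors had combined the samples. No difference could therefore be set against the spread between replicates, no p-value is given, and the read depth behind each level is not given. The study's methods state a genome-wide coverage for the samples, which does not tell the depth of a region. Levels are the authors' mean methylation of a region per group, in percent, and differences are CUMS minus Ctrl in percentage points. How cytosines and samples were averaged is not given, so a level is not taken as a share of calls. A region is called hypermethylated where the level was higher in CUMS and hypomethylated where it was lower. The regions were listed because they differed, so the counts by direction are read beside the same counts over all annotated regions.

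Adenylate and guanylate cyclases make cyclic AMP and cyclic GMP, and phosphodiesterases break both down. Cyclic AMP activates protein kinase A, which A-kinase anchoring proteins hold at defined places in the cell, and cyclic GMP activates protein kinase G. Phospholipase C splits a membrane lipid into inositol trisphosphate, which releases calcium, and diacylglycerol, which activates protein kinase C until diacylglycerol kinases remove it. In brain endothelium cyclic AMP is known for tightening the barrier, whereas protein kinase C isoforms are known as regulators of tight junctions. The Prka symbols also take in subunits of AMP-activated protein kinase (AMPK), a separate kinase that senses cellular energy.

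The promoters are shown first, because 17 of the 35 CG regions of these genes were annotated to one. Over the whole list this held for 1500 of 5849 annotated CG regions, which also include regions outside genes. Both Adcy1, a calmodulin-stimulated adenylate cyclase, and Prkaa1, the catalytic alpha-1 subunit of AMPK, carried a hypermethylated CG region annotated to promoter and transcription start. The CG regions in the promoters of Prkar2b, a regulatory subunit of protein kinase A, and of Pde2a, a phosphodiesterase stimulated by cyclic GMP, were hypomethylated. Their RefSeq promoters are given 5′ to 3′ on the strand of the gene, from 250 bases before to 50 bases after the start, with CG sites in capitals. Pde2a has a pair of annotated starts. The windows lie on the GRCr8 assembly at chr14:86124869-86125168 (Adcy1, + strand), chr2:55967525-55967824 (Prkaa1, + strand), chr6:54381362-54381661 (Prkar2b, - strand), and chr1:165235373-165235672 and chr1:165265759-165266058 (Pde2a, + strand).
Adcy1: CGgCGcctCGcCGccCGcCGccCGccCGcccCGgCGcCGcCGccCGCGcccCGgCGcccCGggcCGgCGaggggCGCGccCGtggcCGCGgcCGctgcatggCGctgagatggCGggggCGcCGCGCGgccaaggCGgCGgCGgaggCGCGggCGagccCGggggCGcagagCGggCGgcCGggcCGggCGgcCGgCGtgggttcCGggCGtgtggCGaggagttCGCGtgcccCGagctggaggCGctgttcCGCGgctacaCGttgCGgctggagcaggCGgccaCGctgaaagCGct
Prkaa1: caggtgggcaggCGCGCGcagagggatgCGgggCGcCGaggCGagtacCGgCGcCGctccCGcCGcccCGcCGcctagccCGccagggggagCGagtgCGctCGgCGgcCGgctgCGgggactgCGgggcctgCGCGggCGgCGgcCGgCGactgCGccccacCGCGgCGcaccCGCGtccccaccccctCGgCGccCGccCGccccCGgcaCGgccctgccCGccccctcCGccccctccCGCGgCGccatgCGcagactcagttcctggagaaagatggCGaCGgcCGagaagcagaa
Prkar2b: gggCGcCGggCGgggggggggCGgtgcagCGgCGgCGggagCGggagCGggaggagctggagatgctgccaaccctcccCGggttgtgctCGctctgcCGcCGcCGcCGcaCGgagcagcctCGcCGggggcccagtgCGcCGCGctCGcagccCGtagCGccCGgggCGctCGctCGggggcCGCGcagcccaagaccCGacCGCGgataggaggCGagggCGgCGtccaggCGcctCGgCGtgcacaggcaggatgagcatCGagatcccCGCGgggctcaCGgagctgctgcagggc
Pde2a, first start: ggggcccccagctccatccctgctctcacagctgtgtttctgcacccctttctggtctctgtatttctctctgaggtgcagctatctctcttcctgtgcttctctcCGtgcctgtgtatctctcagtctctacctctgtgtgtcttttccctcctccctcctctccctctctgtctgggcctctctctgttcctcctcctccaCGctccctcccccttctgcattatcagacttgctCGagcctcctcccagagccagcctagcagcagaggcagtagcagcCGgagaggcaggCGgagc
Pde2a, second start: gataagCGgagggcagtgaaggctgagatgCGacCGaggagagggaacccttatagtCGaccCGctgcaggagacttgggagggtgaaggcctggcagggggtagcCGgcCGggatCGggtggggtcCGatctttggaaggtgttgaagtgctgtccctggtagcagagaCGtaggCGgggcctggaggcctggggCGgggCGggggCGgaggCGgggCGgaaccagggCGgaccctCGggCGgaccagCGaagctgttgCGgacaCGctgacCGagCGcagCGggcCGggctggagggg

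The Adcy1 window held 60 CG sites, the Prkaa1 window 49 and the Prkar2b window 43. In contrast, the first Pde2a window held 5 CG sites and the second 26. Over all 33469 RefSeq promoters of the rat the median was 7 CG sites. Of the 16 genes with a CG region annotated to their promoter, 12 were found in the RefSeq promoter table, with 17 windows and a median of 29 CG sites. Over the 98 windows of all the genes that the symbols take, the median was 19.5. The files use the mRatBN7.2 assembly and the windows GRCr8, so it is not known here how far a DMR lies within a printed window. The Prkar2b region was classed as open sea, whereas its window held 43 CG sites, so that window is not shown to hold the region.

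Motifs of nuclear factors were searched in these windows on both strands. The cyclic AMP response element TGACGTCA was in none of the 17 windows, against 1.83% of all promoters. Its core TGACG, which the full element contains, was in 6 of the 17 windows (35.3%), against 21.2% of all promoters. The GC box GGGCGG was in 14 of the 17 (82.4%), against 33.1% of all promoters and 61.2% of the windows of all the genes that the symbols take. These genes were chosen by a CG region in the promoter and the motif holds CG, but the shares were not corrected for CG content. Pde4a, Pde10a and Pde2a gave more than a single window each, so the windows are not independent. Adcy1 held 7 GC boxes, Prkaa1 6, Prkar2b 3, and the Pde2a windows 0 and 6.

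Of the 147 regions, 117 were hypermethylated and 30 hypomethylated in CUMS, so 79.6% were higher in CUMS against 75.3% of all annotated regions. Among the 35 CG regions 30 were hypermethylated (85.7%), against 80.0% of all annotated CG regions. For CHG the count was 31 of 45 (68.9%), against 68.6%, and for CHH 56 of 67 (83.6%), against 78.5%. By gene, 34 of the 57 carried hypermethylated regions only, 3 carried hypomethylated regions only (Pde2a, Prkar1b and Prkar2b) and 20 carried both. The same split over all genes with an annotated region was not counted, so these counts do not set the genes apart. In 22 genes a single region was listed.

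The size of the differences was close to that of the list as a whole. The median absolute difference of the CG regions was 16.0 points, against 15.6 points over all annotated CG regions. In the CHG regions it was 4.13 points against 4.05, and in the CHH regions 7.12 points against 7.36. A difference of 10 points or more was found in 29 of the 35 CG regions (82.9%), against 76.1% of all CG regions, and one of 20 points or more in 13 (37.1%), against 31.5%. Of those 13 regions, 9 were hypermethylated and 4 hypomethylated (69.2% hypermethylated, against 71.4% of all CG regions of that size).

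**Figure D1:**
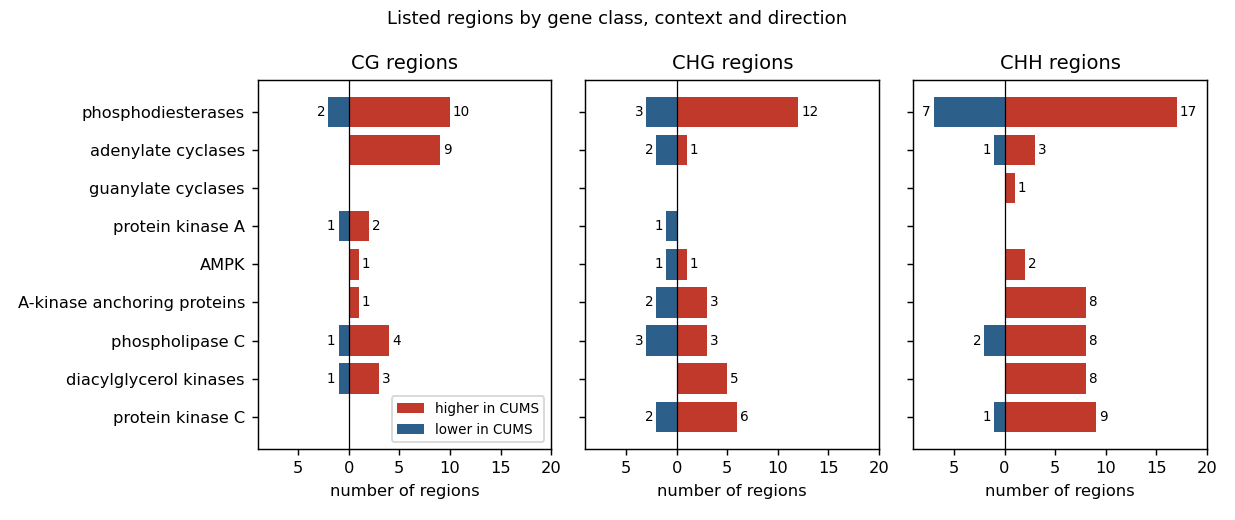
The plot counts the 147 regions by class of gene, with 1 panel per cytosine context. Red bars to the right count regions higher in CUMS and blue bars to the left regions lower in CUMS, and the adenylate cyclases show 9 CG regions on the right and 0 on the left (80.0% of all annotated CG regions, and 97.0% of those in islands, were higher in CUMS), whereas protein kinase C shows no CG region.

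The CG regions were then set beside their place in the genome. All 22 CG regions in CpG islands were hypermethylated, against 97.0% of all annotated CG regions in islands. Their Ctrl levels were low, between 3.76% and 12.7%, and their CUMS levels ran from 10.3% to 36.8%, with differences of 5.41 to 29.9 points. In the open sea, the sequence far from any island, 6 of 10 CG regions were hypermethylated (60%), against 59.7% of all open-sea CG regions. The 4 hypomethylated regions there had Ctrl levels between 39.4% and 74.5%. Shores or shelves of islands held the other 3, of which 2 were hypermethylated, against 77.1% of all annotated CG regions there. In promoters 15 of 17 CG regions were hypermethylated (88.2%), against 96.9% of all annotated CG regions in promoters.

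**Figure D2:**
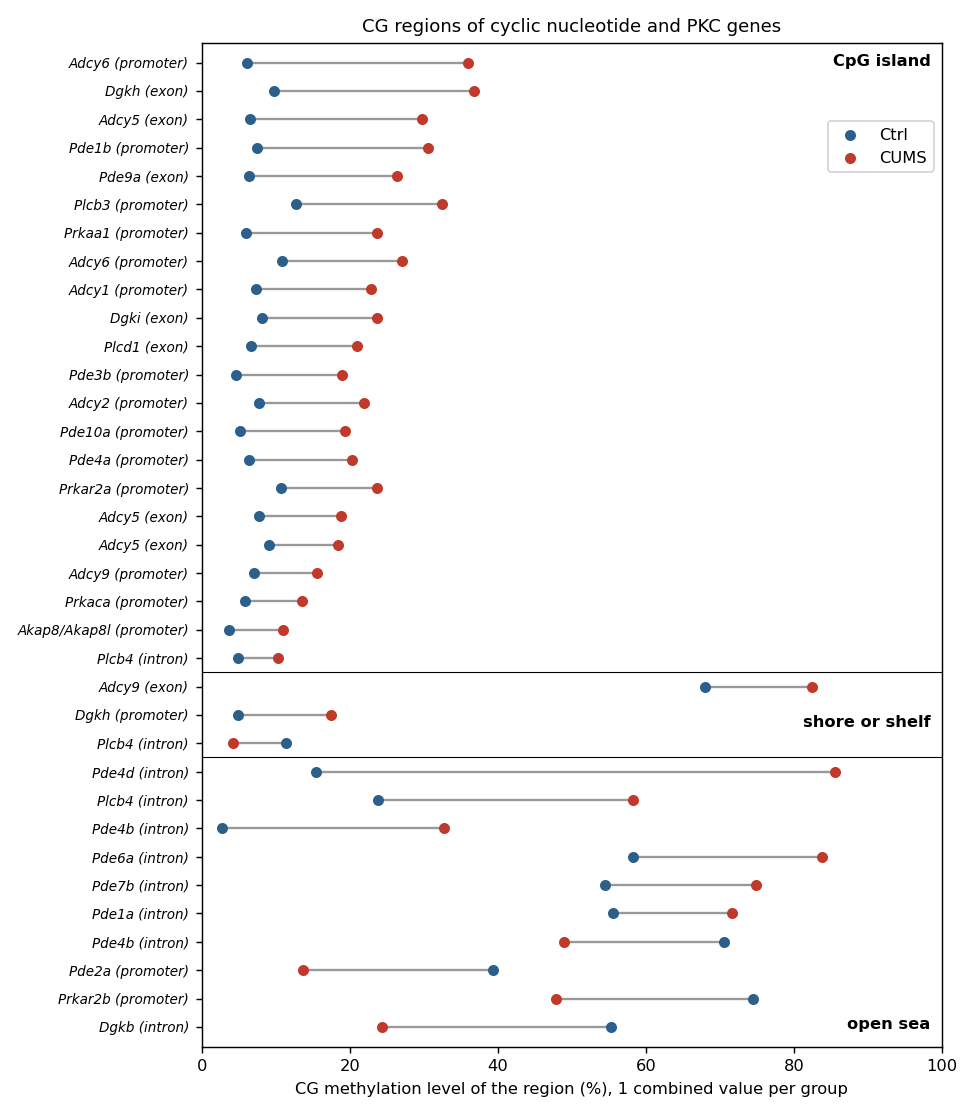
Each line joins the Ctrl level (blue) and the CUMS level (red) of 1 of the 35 CG regions, in percent, with a single combined value per group and therefore no error bar. The 22 island regions all run from Ctrl levels of at most 12.7% to higher CUMS levels, whereas the open-sea regions start from levels between 2.77% and 74.5% and run both ways.

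The adenylate cyclases were examined first, since they make cyclic AMP. Of the 10 Adcy genes in RefSeq, 6 carried regions (Adcy1, Adcy2, Adcy5, Adcy6, Adcy8 and Adcy9). Of their regions 13 were hypermethylated and 3 hypomethylated, against 75.3% hypermethylated over all annotated regions. All 9 of their CG regions, in 5 genes, were hypermethylated. All but 1 of them lay in CpG islands, where 97.0% of all annotated CG regions were hypermethylated, so the count is near that of the list. The Adcy1 promoter region (chr14:81910932-81911163, with 82 CG cytosines) stood at 7.29% in Ctrl and 22.9% in CUMS. In the Adcy2 promoter (chr1:34375582-34375833) the level was 7.72% in Ctrl and 21.9% in CUMS. Both regions lay in islands, with 35.3 CG cytosines per 100 bp.

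Adcy6, a calcium-inhibited cyclase, carried a pair of promoter CG regions separated by 168 bp on chromosome 7. The larger difference, at chr7:129763153-129763435, lay between 6.15% in Ctrl and 36.0% in CUMS, and the neighbour stood at 10.9% and 27.0%. Adcy5, the closest relative of Adcy6, held 3 CG regions annotated to an exon and the 5′ untranslated region on chromosome 11. Their Ctrl levels were 7.72%, 6.51% and 9.07%, and their CUMS levels 18.9%, 29.7% and 18.4%, in the order of their positions. These neighbouring regions are not separate replicates.

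Adcy9, a cyclase that forskolin hardly activates, had an island region in its promoter at 7.07% in Ctrl and 15.6% in CUMS. A second CG region of Adcy9, in an exon and in an island shore or shelf, stood at 68.0% and 82.5%. Levels in this gene thus lay at opposite ends of the scale, with differences in the same direction. Outside CG, the cyclases ran both ways. Adcy2 was higher in a CHG region (0.0884% in Ctrl and 5.87% in CUMS) and Adcy8 in a CHH region (0.504% and 7.81%). Adcy5 was lower in a CHG region (3.90% and 0.0629%), and an intronic CHH region of Adcy1 stood at 11.0% in Ctrl and 0.205% in CUMS, opposite to the Adcy1 promoter.

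The guanylate cyclases, which make cyclic GMP, were little represented in the list. Of 9 Gucy genes, against 25.9% of all protein-coding symbols with a region, only Gucy2c, the intestinal receptor for guanylin, carried a region, an intronic CHH region at 0.0545% in Ctrl and 2.62% in CUMS. The subunits of the nitric oxide receptor, Gucy1a1, Gucy1a2, Gucy1b1 and Gucy1b2, carried none. Neither did Prkg1 and Prkg2, the protein kinase G genes. A gene without a listed region is not shown to be unchanged, since its coverage is not known here.

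The phosphodiesterases held the most regions, 51 in 17 of 24 genes, of which 39 were hypermethylated and 12 hypomethylated, against 75.3% hypermethylated over all annotated regions. In CG context 10 of 12 were hypermethylated, against 80.0%. Those in islands were Pde1b, Pde3b, Pde4a, Pde9a and Pde10a. The promoter of Pde1b, a calmodulin-dependent enzyme, stood at 7.44% in Ctrl and 30.6% in CUMS. Pde3b, which cyclic GMP inhibits, stood at 4.68% and 19.0% in its promoter. Pde4a, specific for cyclic AMP, stood at 6.36% and 20.3%, and Pde10a, which degrades both nucleotides, at 5.24% and 19.4%. An exonic island region of Pde9a, the phosphodiesterase with the highest affinity for cyclic GMP, stood at 6.34% and 26.3%. All 5 island regions thus stood between 4.68% and 7.44% in Ctrl.

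The introns of Pde1a, Pde6a and Pde7b held hypermethylated CG regions that began at higher levels. Pde1a, another calmodulin-dependent enzyme, stood at 55.6% in Ctrl and 71.6% in CUMS. Pde6a, a subunit of the rod photoreceptor enzyme, stood at 58.3% and 83.9%. Pde7b, specific for cyclic AMP, stood at 54.6% and 74.9%.

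Pde2a carried no hypermethylated region, unlike the other listed phosphodiesterases. Its promoter CG region (chr1:155863520-155863629, 13 CG cytosines, open sea) stood at 39.4% in Ctrl and 13.6% in CUMS, a difference of -25.7 points. The only other Pde2a region, an intronic CHG region, stood at 7.22% and 0.0466%, the most negative difference among the CHG regions of the phosphodiesterases. Hypomethylated regions were not particular to Pde2a, since 10 of the 12 of the class lay in other genes.

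Pde4b and Pde4d, which encode cyclic AMP-specific enzymes of the family that rolipram inhibits, had CG regions in introns. In Pde4b a region in a LINE-1 element (L1_Rn) stood at 70.5% in Ctrl and 49.0% in CUMS, with 5 CG cytosines. Another Pde4b region, with 4 CG cytosines, stood at 2.77% and 32.7%. The pair therefore ran in opposite directions. Pde4b carried 5 regions in all, 3 hypermethylated and 2 hypomethylated.

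Pde4d held more regions than any other of the 57 genes, 13 over 859.92 kb of chromosome 2. Its CG region at chr2:40773149-40773216 stood at 15.5% in Ctrl and 85.5% in CUMS. This difference of 70.0 points was the largest of the 5849 annotated CG regions, and the region, of 68 bp with 8 CG cytosines, lay in an intron within RNLTR2d, an endogenous retroviral repeat. The other 12 Pde4d regions were in CHG or CHH context, with differences between -6.10 and 21.98 points. The CHG region of 21.98 points (chr2:40679054-40679135) stood at 1.09% in Ctrl and 23.1% in CUMS, and ranked 25 by size among the 9017 annotated CHG regions.

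**Figure D3:**
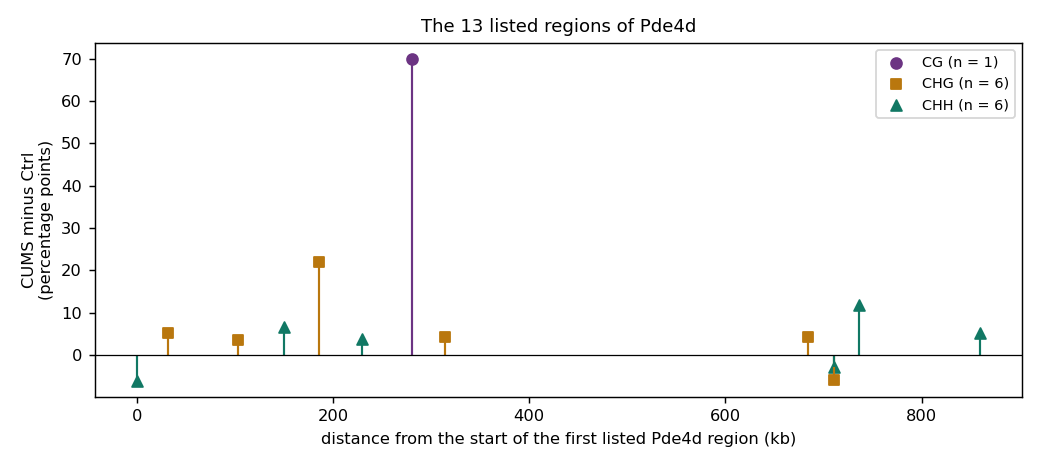
The plot gives the difference, CUMS minus Ctrl in percentage points, of each of the 13 regions of Pde4d against its distance in kb from the start of the first. Purple circles mark CG, orange squares CHG and green triangles CHH, and 10 of the 13 lie above 0, with the CG region at 70.0 points.

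RNLTR2d was annotated to 4 of the 147 regions, against 224 of all 24862 annotated regions. Of the 4, 2 were hypermethylated and 2 hypomethylated, and 65.6% of all 224 RNLTR2d regions were hypermethylated. The hypermethylated regions were the CG region and a CHG region of Pde4d. The hypomethylated ones were a CHH region of Pde4b (7.38% in Ctrl and 0.284% in CUMS) and the promoter CG region of Prkar2b. Across all repeats, 56 of the 147 regions lay in one (38.1%), against 47.1% of all annotated regions. The whole list also holds regions outside genes, so these shares are not of like sets. Of these 56, 41 were hypermethylated and 15 hypomethylated (73.2% hypermethylated, against 71.3% of all annotated regions in repeats).

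Among the other phosphodiesterase regions, the largest positive CHH difference was in an intron of Pde1a, at 0.260% in Ctrl and 14.6% in CUMS. The largest negative one was in an intron of Pde3a, at 11.3% and 0.661%. Pde7b carried 6 regions and Pde10a 5, all hypermethylated. Pde10a had a promoter CHH region at 0.168% and 10.8%, besides its promoter CG region, and Pde1c had one at 0.564% and 11.0%. Pde5a, the cyclic GMP-specific enzyme that sildenafil inhibits, carried no region, as did Pde11a, Pde4c, Pde6d, Pde6g, Pde6h and Pde7a.

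Protein kinase A, the main receptor of cyclic AMP, had 4 regions in 4 of 6 genes, 2 in each direction. Over the whole list 25.9% of protein-coding symbols carried a region, and 75.3% of annotated regions were hypermethylated. All 4 regions of protein kinase A were annotated to promoters, against 2287 of all 24862 annotated regions. Prkaca, the catalytic alpha subunit, stood at 5.87% in Ctrl and 13.5% in CUMS in CG context. Prkar2a, the regulatory subunit type II alpha, stood at 10.7% and 23.7%. In contrast, its paralogue Prkar2b stood at 74.5% and 47.8% (chr6:48595819-48595962, 33 CG cytosines), a difference of -26.7 points. Prkar2b was the hypomethylated region in RNLTR2d and was classed as open sea, although its printed RefSeq promoter is rich in CG. Prkar1b, another regulatory subunit, carried a promoter CHG region at 3.75% and 0.182%.

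AMPK carried regions in 2 of 7 subunit genes, near the 25.9% of all protein-coding symbols with a region. The promoter region of Prkaa1 (chr2:54240076-54240393, 82 CG cytosines) stood at 5.93% in Ctrl and 23.7% in CUMS, and a CHG region of this gene stood at 0.0101% and 2.56%. Prkag2, a nucleotide-binding gamma subunit, had a CHH region in the retroviral repeat RMER17C2 at 0.682% and 25.96%. Its CHG region ran the other way, at 4.31% and 0.0127%.

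The A-kinase anchoring proteins had 14 regions in 8 genes, 12 hypermethylated and 2 hypomethylated, against 75.3% hypermethylated in the whole list. The sole CG region, annotated to the promoter of Akap8 and to the 3′ end of its neighbour Akap8l, stood at 3.76% in Ctrl and 11.0% in CUMS. Both encode nuclear proteins. All 8 CHH regions were hypermethylated, against 78.5% of all annotated CHH regions. Of the 8, 4 lay in Akap6, an anchor at the nuclear envelope of muscle and neurons. The largest was in Akap2, at 0.110% and 14.0%. Akap13 had a CHG region at 0.0109% and 3.94%. Akap12, known as gravin, had an intronic CHG region at 4.04% and 0.0124%, and an exonic CHG region that was higher in CUMS, at 0.496% and 3.99%.

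On the diacylglycerol side, phospholipase C carried 21 regions in 6 of 10 genes, 15 hypermethylated and 6 hypomethylated, near the 75.3% hypermethylated of the whole list. The Plcb enzymes are those that G proteins switch on. The Plcb3 promoter region stood at 12.7% in Ctrl and 32.5% in CUMS, and its Ctrl level was the highest of the 22 island regions. Plcd1 stood at 6.63% and 20.9% in an exonic island. Plcb4 held 3 CG regions with different directions. Its island region stood at 4.87% and 10.3%, a region in a shore or shelf at 11.3% and 4.23%, and an intronic region in the satellite repeat RatSatRep2 at 23.9% and 58.3%. The last difference, of 34.4 points, ranked 247 by size among the 5849 CG regions.

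Plcb1, the main isoform of the forebrain, had 8 regions over 504.99 kb, none of them CG. Of these 7 were hypermethylated. Its largest CHG regions ran in opposite directions, at 0.00989% in Ctrl and 8.06% in CUMS, and at 7.77% and 0.241%. Plcg2, the phospholipase C of immune receptor signalling, held the largest non-CG difference of the 147 regions. It was an intronic CHH region in the retroviral repeat RLTR11A (chr19:45671421-45671726), at 6.49% in Ctrl and 36.2% in CUMS, and its difference of 29.7 points ranked 88 among 9996 CHH regions. The other Plcg2 regions were hypomethylated. In Plce1, which Ras-family proteins activate, the most negative difference was in a CHH region, at 7.78% and 0.1601%. The other 2 Plce1 regions were hypermethylated.

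Diacylglycerol kinases, which convert diacylglycerol to phosphatidic acid, had 17 regions in 6 of 10 genes, and 16 of the 17 were hypermethylated, against 75.3% of all annotated regions. Dgkh had 5 regions, all hypermethylated. Its exonic island region, of 300 bp with 84 CG cytosines, stood at 9.79% in Ctrl and 36.8% in CUMS, the highest CUMS level of the island regions, and its promoter region in a shore or shelf stood at 4.91% and 17.4%. The exonic island region of Dgki stood at 8.11% and 23.7%. The exception in direction was Dgkb, an isoform of neurons, whose intronic CG region (chr6:54727398-54727496) stood at 55.2% and 24.3%. Its difference of -30.9 points was the most negative among the CG regions of these genes, and it rested on 4 CG cytosines. Outside CG, the largest differences of the class were in a CHG region of Dgkz, at 0.169% and 5.31%, and a CHH region of Dgki, at 0.246% and 10.3%.

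Protein kinase C had 18 regions in 7 of 9 genes, 15 hypermethylated and 3 hypomethylated, and no CG region. Over the annotated list 68.6% of CHG and 78.5% of CHH regions were hypermethylated. Prkca and Prkcb encode conventional isoforms, which need calcium and diacylglycerol. The largest Prkca region, in CHH context, stood at 0.900% in Ctrl and 17.7% in CUMS, and a CHG region of Prkcb stood at 3.56% and 0.0215%. The other 2 Prkcb regions were hypermethylated, a CHG region at 0.132% and 4.97% and a CHH region at 0.219% and 6.62%. The isoforms that need diacylglycerol alone were listed with Prkce, Prkch and Prkcq. Prkce had 6 regions, 5 of them hypermethylated, and its largest CHH region stood at 0.0655% and 19.1%. Prkch stood at 0.148% and 16.5% in CHH context and at 0.323% and 6.64% in CHG context. The hypomethylated CHH region of the class was in Prkcq, at 5.88% and 0.596%. The atypical isoform Prkcz carried a promoter CHG region in an island, at 0.0927% and 4.83%. Prkcd and Prkci carried no region.

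In most non-CG regions the level was near 0 in one of the groups, as in the whole list. The group with the lower level was under 1% in 30 of 31 hypermethylated and all 14 hypomethylated CHG regions, against 99.0% of all annotated CHG regions. For CHH this held in 53 of 56 hypermethylated and all 11 hypomethylated regions, against 91.5%. The higher group reached 10% in 1 of 45 CHG regions, against 3.28% of all annotated CHG regions. For CHH this was so in 19 of 67 regions, against 33.0% of all annotated CHH regions. The number of reads behind a level near 0 is not given in the tables.

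**Figure D4:**
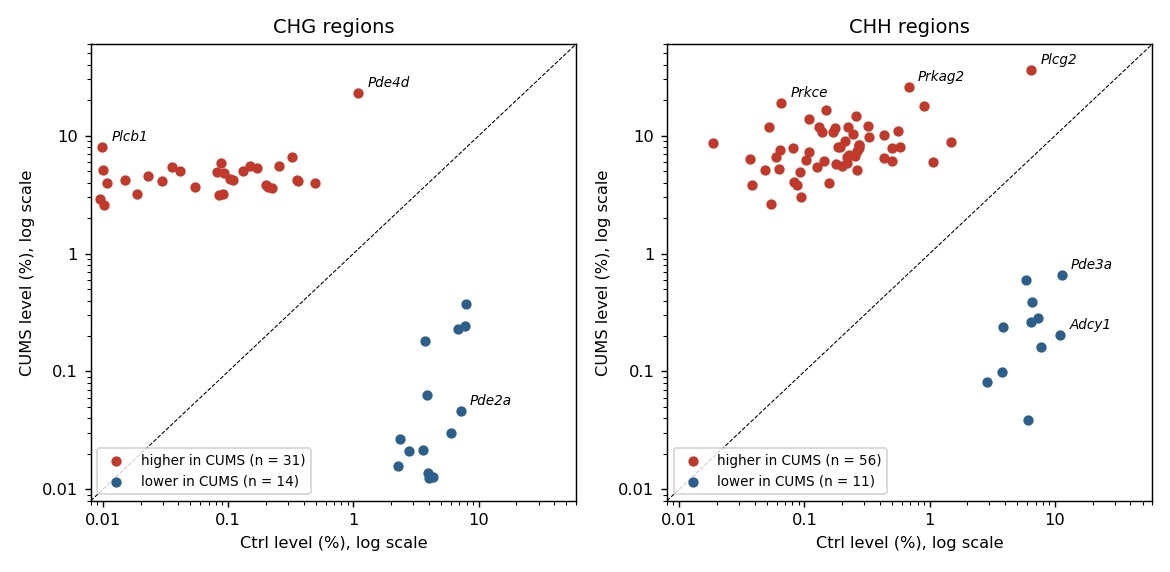
Each point is 1 CHG region (left, n = 45) or CHH region (right, n = 67), with the Ctrl level on the x axis and the CUMS level on the y axis, both in percent on a log scale, and the dashed line marks equal levels. Points lie away from the line in both directions, 31 above and 14 below for CHG and 56 above and 11 below for CHH, and Pde4d and Plcg2 reach the highest CUMS levels.

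Regions of different contexts coincided at 3 places, and at each the direction was shared. A CHG and a CHH region of Pde4d overlapped by 155 bp and were both lower in CUMS. In Plcg2 such a pair overlapped by 224 bp and was also lower, and in Plcb1 a pair overlapped by 146 bp and was higher. CHG and CHH cytosines of a place are read from the same molecules, so such pairs are not independent.

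To examine the rest of the pathway, 74 other genes were counted from a list of G proteins, effectors, nitric oxide and natriuretic peptide genes and exporters. Of these, 41 carried 78 regions, and 25.9% of all protein-coding symbols carried a region. The gene counts of the single lists below stand beside the same share, and gene length was again not taken into account. Of the 78 regions 63 were hypermethylated and 15 hypomethylated, against 75.3% hypermethylated over all annotated regions. In CG context 29 of 30 were hypermethylated, against 80.0%, and against 97.0% in islands. How many of these 30 lay in islands was not counted. The G protein subunits held 28 regions in 8 of 11 genes. Of these 12 lay in Gnas, the imprinted gene of the alpha subunit that stimulates adenylate cyclase, and all 12 were hypermethylated. In 9 of the 11 CG regions of Gnas the Ctrl level was intermediate, between 38.1% and 52.5%, and the CUMS level between 55.1% and 71.4%. Gna15, an alpha subunit that activates phospholipase C, held the sole hypomethylated CG region of the list, at 24.9% in Ctrl and 9.86% in CUMS.

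Among the effectors of cyclic nucleotides 11 of 24 genes carried 16 regions, 13 of them hypermethylated. The counts of this and the next lists are small and stand beside 75.3% of all annotated regions. Rapgef3, the exchange factor Epac1 that cyclic AMP activates, stood at 5.47% in Ctrl and 27.8% in CUMS in a CG region of its promoter. The cyclic AMP-responsive factors also carried hypermethylated CG regions. Creb1 stood at 6.45% and 19.2%, Crem at 7.02% and 17.9%, and Atf1 at 5.95% and 21.2%. On the nitric oxide and natriuretic peptide side 3 of 9 genes carried 5 regions, all hypermethylated, including CG regions of the receptors Npr1 (8.23% and 19.8%) and Npr3 (5.45% and 11.8%). The exporters Abcc4 and Abcc5 carried 3 regions, all hypermethylated. Among the effectors of diacylglycerol and inositol phosphates 17 of 28 genes carried 26 regions, 21 of them hypermethylated. That list also takes in further phospholipases C, such as Plch1 and Plcz1. Its largest CG differences were in Plch1 (12.5% and 56.7%) and Chn2 (38.2% and 72.9%), resting on 6 and 7 CG cytosines. The largest difference in any context was in a CHH region of Rasgrp2, at 0.250% and 58.5%.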

How the data were processed

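Enzymatically converted DNA of sorted hippocampal BMECs (3 CUMS and 3 Ctrl samples, grouped by sample title) was sequenced by the authors. Per the labels and the study's methods, reads were checked with FastQC 0.11.3, trimmed with fastp 0.20.0 and aligned to mRatBN7.2 (rn7) with Bismark 0.16.3 and Bowtie2, and DMRs were called with DSS. In this chemistry a cytosine that escaped deamination reads as methylated, so incomplete conversion raises every level.

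The deposited tables give each region's level as a fraction, combined by the authors over the samples of a group, without counts, coverage or values per sample. The authors' own difference and areaStat (region score) columns were not used as results. The score served only to check the annotated list, which takes in 9996 of 145823 CHH regions, by largest score with 4 exceptions, besides nearly every region of the other contexts. The methods state a minimum difference of 10%, but the smallest in the annotated list was 2.00 points.

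Fractions were multiplied to percent, and regions were counted with Python 3.11.15, pandas 2.3.3 and matplotlib 3.10.9. The counting was tested on simulated data. A place was taken as promoter before exon before intron. The planned exact permutation test over samples was not possible with a single value per group, so all results are descriptions. Counts over regions are not replicated measurements. Members, classes and pathway lists were chosen with earlier results of these data known. Named were the CG regions in promoters or lower in CUMS, the largest difference per class, context and direction, the genes with the most regions and regions within 1 kb of one of another context; further regions were named after their values were seen. Pde4dip was not taken, since its symbol continues after the letter. Alternatives covered the size of difference, cytosine number, region length, overlaps, repeats, islands, the reading of the symbols and the full list. Sequences of the DMRs themselves are not given here, since no sequence of their assembly was used, and the RefSeq promoters on GRCr8 were matched by symbol. The values of 1 gene are not reported here.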

Additional observations from a re-analysis of the deposited data

Results flagged for a closer look

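A wider list of regions was deposited beside the annotated one. In the stretches between the outermost annotated regions of the 35 genes with more than 1 region, 5914.2 kb in all, it held 453 regions, of which 327 are outside the annotated list. All 327 are CHH regions with lower scores. Of these 199 were hypermethylated and 128 hypomethylated (60.9% hypermethylated, against 63.5% of all CHH regions outside the annotated list). The hypermethylated ones had medians of 0.192% in Ctrl and 2.97% in CUMS, and the hypomethylated ones 3.03% and 0.190%. Pde4d held 52 of the 327, of which 33 were hypermethylated and 19 hypomethylated, and in the same order Dgkb held 36 (22 and 14), Pde10a 27 (19 and 8) and Plcb1 19 (15 and 4). The direction was the other way in Prkcb (2 and 8), Prkca (4 and 8), Pde9a (3 and 5) and Adcy5 (1 and 3). It was also so in Akap6 (4 and 5), Dgkh (2 and 3) and Pde3a (2 and 3). Akap12 (1 and 2) and Prkaa1 (0 and 2) followed. Prkce, also of protein kinase C, held 10 and 3. The signal was picked out because it lies in data that the comparisons above did not use, and it has no replicate check.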

How the results depend on the processing

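Of 32 alternatives over 8 results, 21 stayed near the reported value (within 1.5 times a count or the 95% exact binomial interval of a share) and 11 moved. The interval takes regions as independent, which neighbouring regions are not, and measures no spread between samples. It served only as a yardstick for the labels. A reversal of direction was not scored. The 117 hypermethylated and 30 hypomethylated regions became 42 and 6 at a difference of at least 10 points, 12 and 4 at 20 points or more, 76 and 15 outside repeats, and 297 and 156 in the full list within the stretches. The hypermethylated share ran from 65.6% (full list) to 87.5% (at least 10 points). Among CG regions it was 85.7%, with 69.2% at 20 points or more and 61.5% outside CpG islands, so the CG share depends on the islands. At 10 points or more 35 of the 57 genes kept a region. Each of these settings keeps fewer or more regions by its own construction.

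No paired analysis was possible because 1 combined value per group was deposited, and for the same reason no replicate was left out. The depth of a region is not given in the tables, so levels near 0 carry no limit of detection.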
